A study of Mus musculus with 8 samples.

Results

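The nuclear genes named for subunits of the oxidative phosphorylation machinery were compared between activated neurons and bulk tissue of the mouse temporal association cortex (TeA). Members were taken by gene symbol (Ndufa, Ndufb, Ndufc, Ndufs or Ndufv followed by a digit, Sdha to Sdhd, and symbols starting with Uqcr, Cox4 to Cox8 or Atp5), which gave 80 of the 15437 genes in the table. These were 37 genes of complex I, 4 of complex II, 8 of complex III, 14 of complex IV and 17 of complex V, and no 2 members had identical counts. The symbols also caught 3 genes whose products are not subunits: Cox4nb, a part of an endoplasmic reticulum membrane complex, and Atp5s and Atp5sl, mitochondrial proteins outside the synthase itself. RNA-Seq libraries came from male Arc-dVenus mice on a C57BL/6 background, 60 to 90 days old, whose transgene puts a short-lived Venus protein under the Arc promoter, so that recently active neurons glow. Arc-dVenus+ cells were picked by hand from dissociated TeA, in 3 pools from fear conditioned (FC) mice, which received 7 tones paired with 7 footshocks, and in 2 pools from shock-only mice, which received 7 footshocks without tones. The 3 bulk-tissue libraries came from 1 FC mouse and 2 shock-only mice, whose TeA was treated with protease like the sorted samples, and all mice were killed 6 h after behavior. The FC pools are named here by the number in their label, read as cells (39, 40 and 23 cells), as are the shock-only pools (30 and 33 cells). Every library carried the reporter transgene, and its Arc promoter limits the sorted cells to those active in the hours before dissection.

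Oxidative phosphorylation converts the energy of fuel molecules into ATP across the inner mitochondrial membrane. Complex I (NADH dehydrogenase) and complex II (succinate dehydrogenase) pass electrons to ubiquinone, complex III (cytochrome bc1) passes them on to cytochrome c, and complex IV (cytochrome c oxidase) hands them to oxygen, while complexes I, III and IV pump protons that drive complex V, the ATP synthase. Neurons spend much of their ATP on ion pumping and synaptic transmission, and most of it is made this way. A set of the core subunits is encoded by mitochondrial DNA and was not analysed here; all members below are nuclear genes, several of which have tissue-specific paralogs.

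Library totals were 10223586 to 24151755 counts in the cell pools and 7110598 to 9846374 in tissue. Between 1500 and 2631 genes had no count in a cell pool, against 108 to 131 in a tissue library, so low values in the pools are less certain than in tissue. The pools carried excitatory neuron markers, 3 of 8 of which rose (Nrn1, Sv2b and Slc17a7), among them the glutamate transporter Slc17a7 at 689 to 1011 CPM (a gene's counts scaled to a library total of 1e+06) against 460.0 to 516 in tissue. Camk2a, the most abundant, was lower in every pool (3010 to 4316 against 5964 to 6774 CPM, log2 fold change -0.59, adjusted p = 0.0093), while 7 of the 8 had a log2 fold change above 0. On library totals the 8 markers summed to 6356 to 7923 CPM in cells and 7968 to 8807 CPM in tissue. On TMM-scaled sizes, explained below, the sums overlapped, at 6762 to 8473 in cells and 7086 to 7992 in tissue (ratio of means 1.01). Other cell types were low: summed CPM was 953 to 1563 against 8599 to 9866 for 8 astrocyte markers, 28.03 to 75.8 against 368 to 390.2 for 8 oligodendrocyte markers and 0.46 to 66.6 against 238 to 299 for 8 microglial markers. The 9 endothelial and pericyte markers summed to 24.6 to 43.0 against 326 to 352 CPM, and the 8 inhibitory neuron markers to 96.4 to 167 against 716 to 746 CPM. Gfap reached at most 0.17 CPM in a pool, Gad1 at most 0.30, and Cldn5, C1qa and Mag had no count in any pool. Cldn5, C1qa and Mag were low in tissue too, at most 8.44 CPM. Other markers were present in every pool: Slc1a2 had 839 to 1418 CPM in cells and 5818 to 7010 CPM in tissue. Gad2 had 32.1 to 40.6 CPM in cells and 386 to 390 CPM in tissue. C1qb reached 29.6 CPM in a shock-only pool, inside its tissue range (19.7 to 32.1 CPM). Itgam reached 26.3 CPM in an FC pool, also inside its tissue range (24.7 to 48.7 CPM). The part of these cell types in the values below was not tested, and in tissue a smaller share of cells of a type and less RNA per cell cannot be told apart.

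Together the members took about the same share of counts in Arc-dVenus+ cells as in bulk tissue. Their summed level was 6190, 6158 and 6242 CPM in the FC pools of 39, 40 and 23 cells, 8122 and 6302 CPM in the shock-only pools of 30 and 33 cells, 6519 CPM in FC tissue and 6836 and 6446 CPM in shock-only tissue. All pools but the one of 30 cells lay below all 3 tissue libraries, that pool lay above them, and the groups overlapped on this scale. The means were 6603 ± 851 CPM (SD, n = 5) in cells and 6601 ± 207 CPM (SD, n = 3) in tissue, a ratio of 1.00, or 0.94 without the shock-only pool of 30 cells. As a share of all counts, the members made up 0.62% to 0.81% in cells and 0.64% to 0.68% in tissue. This scale is relative to each library's total. TMM scaling, which sets libraries level on the bulk of their genes, gave factors of 0.90 to 0.98 for pools and 1.10 to 1.13 for tissue, and on TMM-scaled library sizes the direction turned: the members summed to 6343 to 9010 in the pools and 5790 to 6079 in tissue, every pool above every tissue library, a ratio of 1.20.

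**Figure D1:**
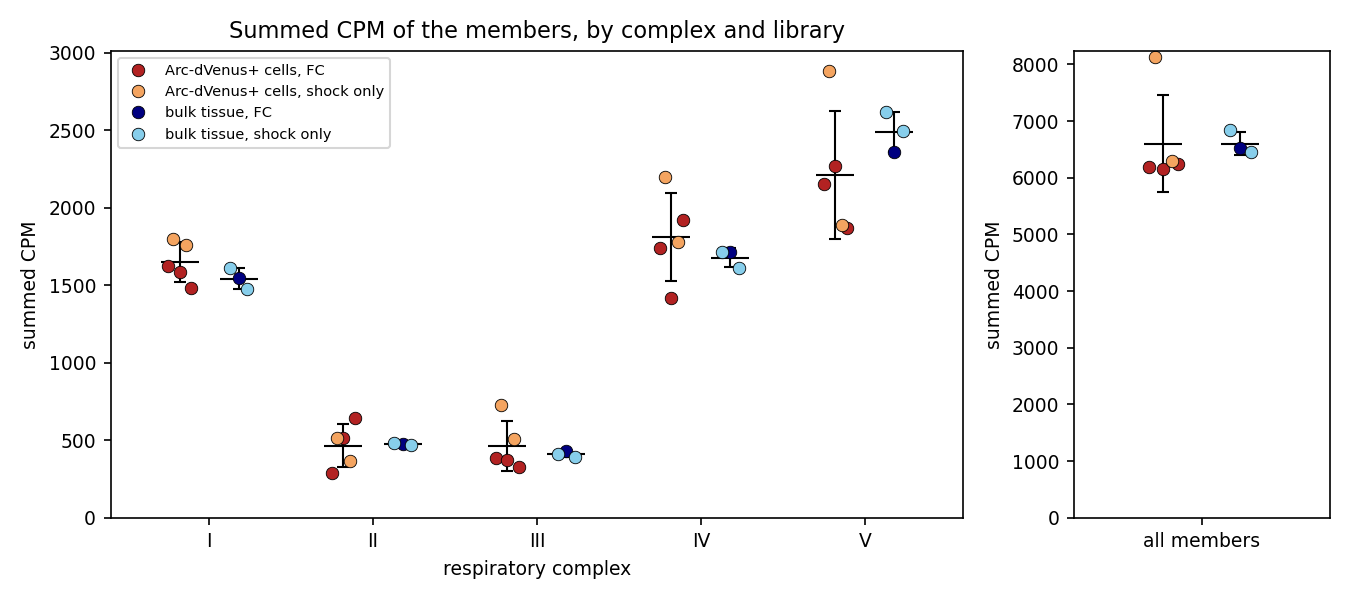
Summed CPM of the members of each complex (left) and of all members (right), each point a library, with bars for the mean and SD of the 5 Arc-dVenus+ pools and of the 3 bulk-tissue libraries. On these library totals cells and tissue overlap in every complex; the highest value of complexes I, III, IV and V is the shock-only pool of 30 cells, which reaches 8122 CPM for all members.

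On library totals, the summed levels of cells and tissue overlapped in every complex. Complex I summed to 1482 to 1801 CPM in cells and 1477 to 1610 CPM in tissue (ratio of means 1.07), and complex II to 286 to 641 CPM and 471 to 481 CPM (ratio 0.98). Complex III summed to 327 to 726 CPM in cells and 393 to 432 CPM in tissue (ratio 1.12), and complex IV to 1419 to 2200 CPM and 1610.0 to 1716 CPM (ratio 1.08). Complex V, the largest of them, summed to 1871 to 2883 CPM in cells and 2357 to 2616 CPM in tissue (ratio 0.89). The spread between pools exceeded that between tissue libraries in each. On TMM-scaled sizes complex I no longer overlapped, at 1585 to 1997 in the pools and 1340 to 1431 in tissue (ratio 1.28), and the other complexes did.

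Gene by gene, none of the 78 members tested rose and none fell in Arc-dVenus+ cells. A gene was counted as having risen or fallen at an adjusted p below 0.05 and a change of more than 2-fold, in edgeR's quasi-likelihood test with Benjamini-Hochberg adjustment over the 12493 genes that reached 20 CPM summed over the 8 libraries. Of all genes tested, 3.13% rose and 6.58% fell. At an adjusted p below 0.05 with no limit on the fold, 1 member was called, higher in cells, against 6.17% of all genes called higher and 6.85% called lower, and at an unadjusted p below 0.05 there were 8 members, all higher in cells, against 12.7% of all genes. With DESeq2, 2 members rose and none fell, against 5.19% and 8.07% of all genes. The members not tested, Ndufa4l2 and Cox7a1, did not reach the minimum.

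The fold changes of the members were centred above those of all genes. Their median log2 fold change, cells over tissue, was 0.33 (interquartile range 0.07 to 0.55), against 0.10 for all genes (interquartile range -0.61 to 0.59). Of the members, 61 of 78 lay above 0, against 6832 of 12493 genes tested. With libraries scaled by their totals alone, the median of all genes moved by 0.25, to -0.15, that of the members became 0.06, and 48 of 78 lay above 0. The members stood 0.23 above all genes with TMM and 0.22 with total scaling, and 57 of 78 lay above the median of all genes in both. The difference was 0.083 with a minimum of 100 CPM and 0.37 with no filter on low counts. By complex, the medians were 0.41 for complex I, 0.23 for II, 0.45 for III, 0.33 for IV and 0.24 for V with TMM. With total scaling those of complexes II and V became -0.03. Without the FC pool of 23 cells the median of complex II was 0.08, beside 0.08 for all genes.

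For 22 of 78 members the 95% interval of the fold change lay within 2-fold in both directions, against 13.4% of all genes tested. These were 9 of 17 members of complex V, 6 of 13 of IV, 5 of 36 of I, 1 of 4 of II and 1 of 8 of III. For the other members the data allow a difference of more than 2-fold. Standard errors of the log2 fold change were 0.18 to 2.23, with a median of 0.37.

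**Figure D2:**
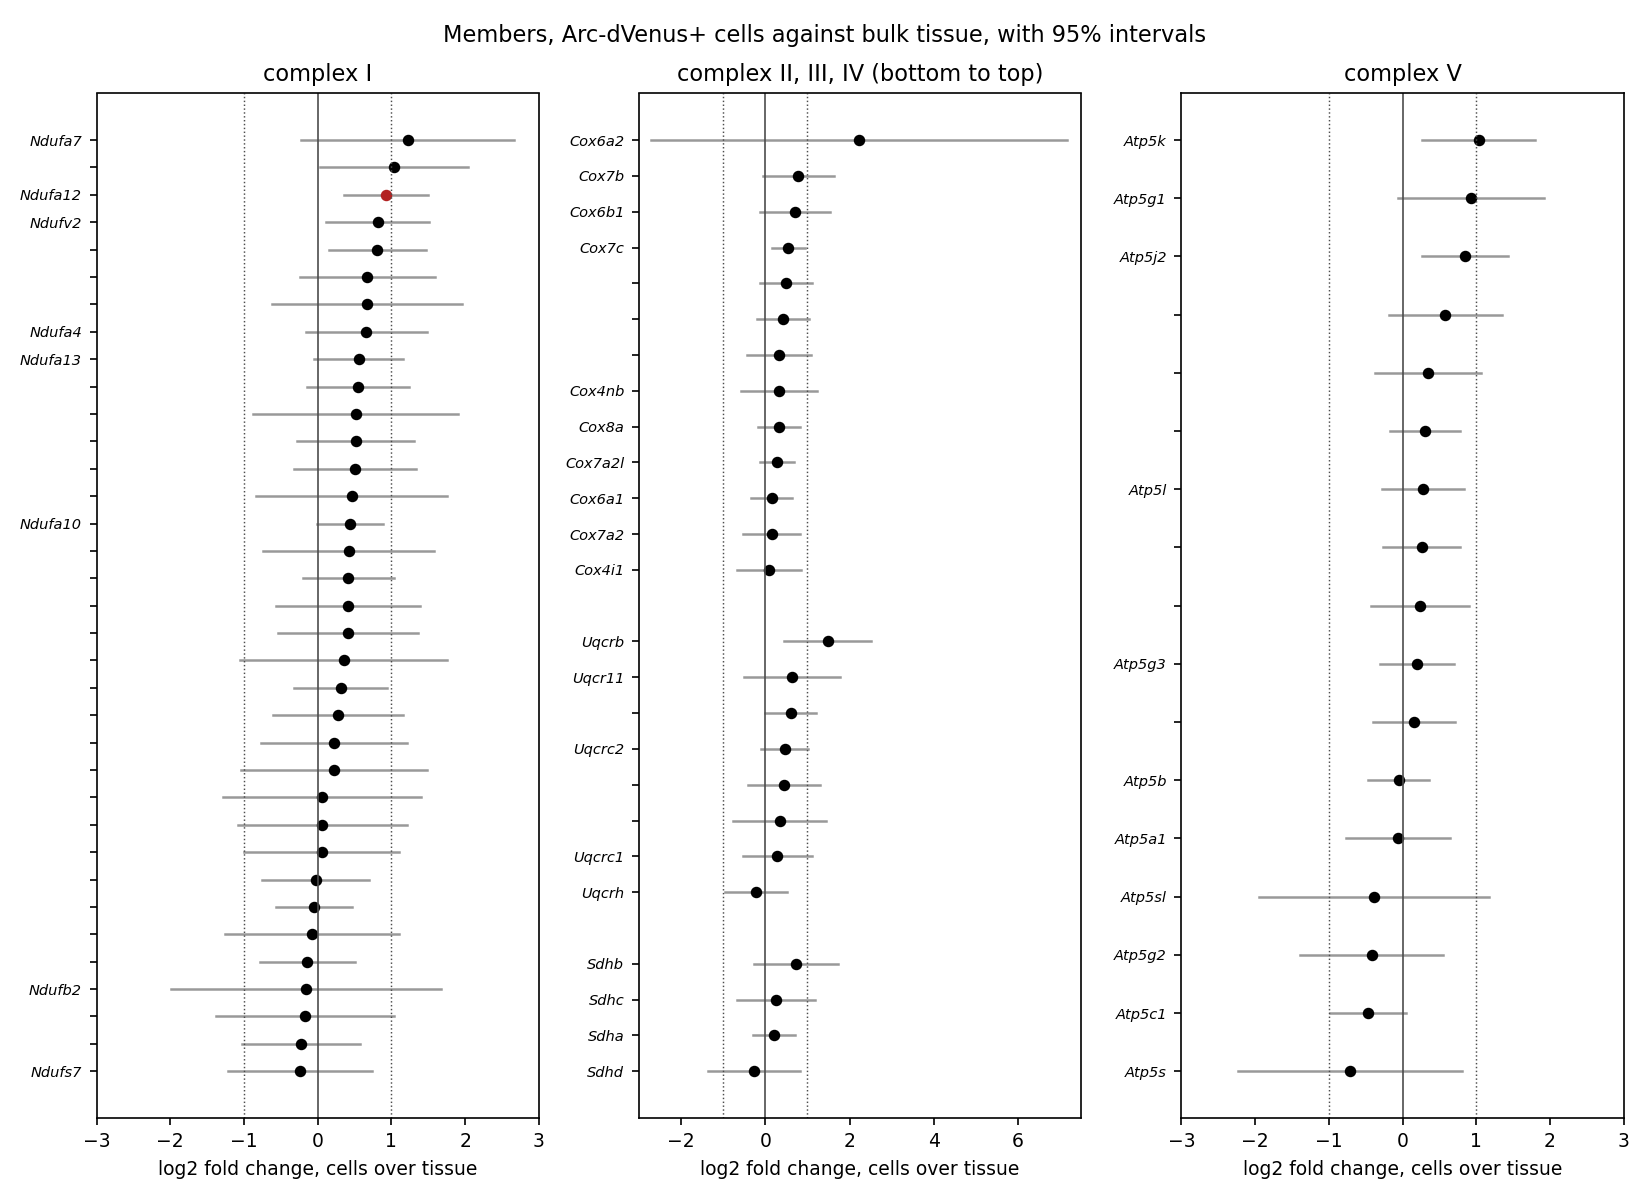
Log2 fold change, cells over tissue, of 77 tested members, ordered by value within each complex and labelled where named in the text, with 95% intervals as grey lines; dotted lines mark 2-fold. Ndufa12 (red) has an adjusted p below 0.05; most other intervals cross 0, and that of Cox6a2 spans -2.71 to 7.17.

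Levels kept their order. Per kilobase of the annotated transcript with the longest coding sequence, Cox8a (640.4 CPM per kb in cells, 616 in tissue), Cox7c (599.9 and 493), Atp5b (457 and 568) and Cox6a1 (402 and 433) were the highest of the 80 members in both. Ndufb2, Cox7a1 and Ndufa4l2 were the lowest in cells, at 3.50, 0.50 and 0.012 CPM per kb. The rank of Ndufb2 rests on an annotated length of 4371 nt. Not divided by length, its mean of 15.3 CPM in cells was above those of Atp5sl (7.92) and Atp5s (6.12). Of the 20 highest members in cells, 16 were among the 20 highest in tissue, and over the 80 members the 2 sets of levels had a Spearman correlation of 0.94, which is across genes of the same libraries and not across replicates. Atp5b, the catalytic beta subunit of ATP synthase, alone took 10.5% to 16.6% of the members' counts in cells and 14.8% to 17.6% in tissue.

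In complex I, the accessory subunit Ndufa12 was the only member with an adjusted p below 0.05. It had 89.0, 69.8 and 83.3 CPM in the FC pools of 39, 40 and 23 cells, 78.8 and 126 CPM in the shock-only pools of 30 and 33 cells, and 56.7, 51.8 and 60.5 CPM in the FC and the shock-only tissue libraries. Every pool was above every tissue library. The log2 fold change was 0.92 ± 0.26 (SE), short of 2-fold, with an adjusted p of 0.039, and it passed 2-fold without the shock-only pool of 30 cells (1.05, adjusted p = 0.024); over the alternatives its adjusted p ranged from 0.0056 to 0.21. The transcript lies at chr10:93661700-93684188 on the + strand of mm9 and has 1 near-identical copy elsewhere in the genome, where reads that fit both places are lost because only uniquely aligned reads were counted.

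Ndufa7, another accessory subunit, had the largest log2 fold change of complex I, 1.22 ± 0.65 (SE, adjusted p = 0.29), with 10.2 to 88.6 CPM in cells and 18.4 to 24.2 CPM in tissue, so the pools lay on both sides of tissue. The most abundant members of the complex I list were Ndufa4 and Ndufa13, the latter with 57.4 to 121 CPM in cells and 68.5 to 86.9 CPM in tissue (log2 fold change 0.55, adjusted p = 0.24). Ndufa4, which carries a complex I name but is now assigned to complex IV, had 103, 88.8 and 80.4 CPM in the FC pools, 244 and 126 CPM in the shock-only pools and 91.4 to 105 CPM in tissue. Its log2 fold change was 0.66 ± 0.37 (SE, adjusted p = 0.32), and the pool of 30 cells alone was well above the rest.

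Complex II, with 4 members, had no call. Sdha, the flavoprotein that oxidizes succinate and also serves the tricarboxylic acid cycle, had 214, 311 and 419 CPM in the FC pools, 330.5 and 243 CPM in the shock-only pools and 310 to 321 CPM in tissue. The tissue libraries were nearly level, and the pools lay on both sides of them (log2 fold change 0.21 ± 0.22, SE, adjusted p = 0.65). The iron-sulfur subunit Sdhb had the highest value of the complex, 0.72 ± 0.45 (SE, adjusted p = 0.39), with 22.1 to 77.0 CPM in cells and 35.0 to 41.3 CPM in tissue. The membrane anchors Sdhc (0.26, adjusted p = 0.78) and Sdhd (-0.27, adjusted p = 0.81) had 29.6 to 110 and 15.0 to 61.7 CPM in cells against 75.7 to 81.9 and 41.2 to 49.3 CPM in tissue.

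In complex III, Uqcrb, a small subunit that binds ubiquinone, came closest to having risen. It had 23.1, 29.6 and 33.7 CPM in the FC pools of 39, 40 and 23 cells, 77.7 and 50.6 CPM in the shock-only pools of 30 and 33 cells, and 20.0, 19.6 and 16.3 CPM in the tissue libraries. Every pool was above every tissue library, and the shock-only pools were the highest. The log2 fold change was 1.48 ± 0.47 (SE, 95% interval 0.44 to 2.51), with an adjusted p of 0.065 that ranged from 0.0094 to 0.25 over the alternatives. It counted as having risen in DESeq2, in edgeR's exact test, with no filter on low counts, with condition as a covariate and without the FC pool of 39 cells. Its transcript (chr13:67001553-67006314, - strand, mm9) has 3 near-identical copies in the genome.

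The 2 large core proteins of complex III, Uqcrc1 and Uqcrc2, were its most abundant members. Uqcrc2 had 74.0 to 141 CPM in cells and 83.1 to 104 CPM in tissue (log2 fold change 0.46, adjusted p = 0.32), and Uqcrc1 39.4 to 112 and 54.9 to 63.7 CPM (0.29, adjusted p = 0.72). The hinge protein Uqcrh had the lowest log2 fold change, -0.22 ± 0.33 (SE, adjusted p = 0.76), with 22.997 to 61.0 CPM in cells and 60.5 to 69.2 CPM in tissue. Summed complex III was 387, 372 and 327 CPM in the FC pools, 726 and 507 CPM in the shock-only pools and 393 to 432 CPM in tissue. On library totals all FC pools were below, and both shock-only pools above, every tissue library, a difference that was not tested. On TMM-scaled sizes the FC pools, at 349 to 396, overlapped tissue, at 357 to 384.

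Complex IV had no call, and all 13 tested members had a log2 fold change above 0 under TMM scaling, a sign that turned with total scaling for Cox4i1, Cox6a1 and Cox7a2 among those named. Cox7c, a short structural subunit, had 383, 295 and 267 CPM in the FC pools, 393 and 282 CPM in the shock-only pools and 264, 273 and 262 CPM in tissue. The pools reached from within the tissue range to well above it, and the log2 fold change of 0.54 ± 0.18 (SE) had an adjusted p of 0.075. Cox8a, the widely expressed isoform of subunit VIII, had 237 to 423 CPM in cells and 319 to 367 CPM in tissue (log2 fold change 0.32, adjusted p = 0.46). Cox4i1, the housekeeping isoform of the regulatory subunit IV, had the lowest value, 0.08 ± 0.34 (SE, adjusted p = 0.92), a sign that turned with total scaling (-0.17). It had 245, 80.2 and 110 CPM in the FC pools, 146 and 243 CPM in the shock-only pools and 182 to 188 CPM in tissue, so that 2 pools were above and 3 below the tissue libraries.

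Subunits VIa and VIIa of complex IV exist as a widely expressed form and a form named for heart and skeletal muscle, and the widely expressed form dominated in every library. Cox6a1 had 159 to 297 CPM in cells and 224 to 266 CPM in tissue and made up 98.8% to 99.2% of the Cox6a counts in tissue. Its muscle-type paralog Cox6a2 had 0.47 CPM in the FC pool of 39 cells and no count in the FC pools of 40 and 23 cells, 50.1 and 0.20 CPM in the shock-only pools of 30 and 33 cells, and 3.25, 2.13 and 2.67 CPM in tissue. Only the pool of 30 cells was above tissue; 1210 of the 1220 Cox6a2 counts in cells came from it, and there the gene made up 15.5% of the Cox6a counts. In that pool Gad1 was at 0.12 CPM and Slc32a1 and Pvalb had no count, while Gad2 was at 32.1 CPM, the lowest of the pools (32.1 to 40.6 CPM). The inhibitory neuron markers summed to 154 CPM there, inside the range of the pools. Most of that sum was the potassium channel Kcnc2, at 121 CPM in this pool, 124 CPM in the other shock-only pool and 62.4 to 81.9 CPM in the FC pools. The part of inhibitory neurons in the Cox6a2 value was not tested. The log2 fold change of Cox6a2 over tissue, 2.23 ± 2.23 (SE, adjusted p = 0.62), rested on that pool, without which the gene did not reach the minimum for testing, and its sign turned with voom and with condition as a covariate.

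The muscle-type Cox7a1 was listed at 0 in 4 of 5 pools and at 0.90 CPM (12 counts) in the FC pool of 40 cells, against 0.27 to 0.71 CPM in tissue (13 counts in all). Its paralog Cox7a2 had 44.1 to 89.3 CPM in cells and 56.1 to 76.7 CPM in tissue (log2 fold change 0.15, adjusted p = 0.83). Cox7a2l, the third gene of the Cox7a group, had 95.7 to 121 CPM in cells and 101 to 107 CPM in tissue (0.28, adjusted p = 0.405) and was the second least variable tested member between pools. Cox6b1, the form of subunit VIb in most tissues, had 61.0 to 216 CPM in cells and 83.5 to 88.7 CPM in tissue (0.70, adjusted p = 0.29). Ndufa4l2, a paralog of Ndufa4 induced by low oxygen in other cells, had 1 count in all pools together and 29 counts in tissue, where its level was 0.84 to 1.52 CPM. Every pool was below every tissue library for Ndufa4l2, and in a fit with no filter on low counts it fell (adjusted p = 0.011); a fold is not given because the pools are at or below the floor of 3 counts.

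**Figure D3:**
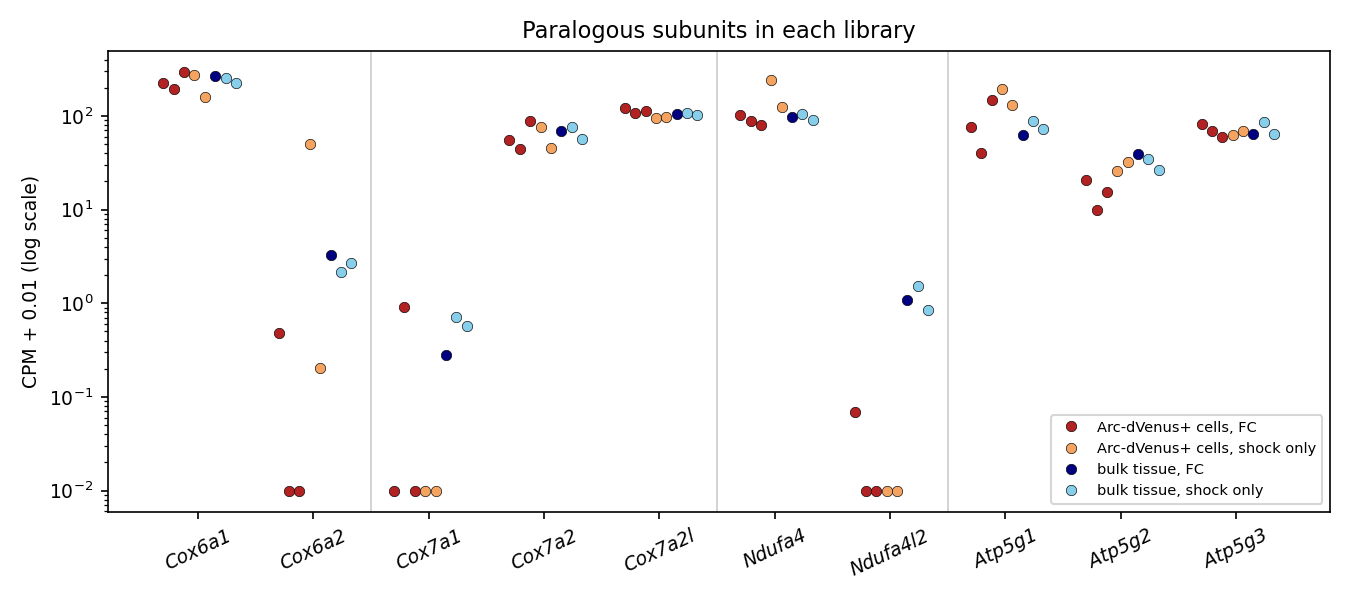
CPM plus 0.01 (log axis) of paralogous members in each of the 8 libraries, in order FC pools of 39, 40 and 23 cells, shock-only pools of 30 and 33 cells, FC tissue and shock-only tissue; points at the bottom are counts of 0. Cox6a2 reaches 50.1 CPM in 1 pool only, and Ndufa4l2 is at 0 in 4 of 5 pools.

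In complex V, the catalytic core did not differ beyond its spread. Atp5b had 846, 1023 and 736 CPM in the FC pools, 1111 and 662 CPM in the shock-only pools and 962, 1164 and 1137 CPM in tissue. The groups overlapped, the log2 fold change was -0.05 ± 0.19 (SE, adjusted p = 0.91), and its 95% interval of -0.47 to 0.36 keeps the difference within 2-fold. Atp5a1, the alpha subunit, had 392, 401 and 223 CPM in the FC pools, 548 and 181 CPM in the shock-only pools and 412 to 460 CPM in tissue (-0.06 ± 0.32, SE, adjusted p = 0.94). The lowest value belonged to Atp5s, one of the genes that are not subunits, at -0.72 ± 0.69 (SE, adjusted p = 0.61), with 2.76 to 13.99 CPM in cells and 10.8 to 13.2 CPM in tissue.

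Atp5k, the membrane-sector subunit e, which helps ATP synthase form dimers, had the highest value of complex V. It had 34.9, 41.5 and 50.8 CPM in the FC pools of 39, 40 and 23 cells, 72.5 and 58.0 CPM in the shock-only pools of 30 and 33 cells, and 37.0, 29.4 and 24.6 CPM in tissue. Only the FC pool of 39 cells lay inside the tissue range. The log2 fold change of 1.03 ± 0.35 (SE) had an adjusted p of 0.082, which ranged from 0.021, in DESeq2, to 0.33 over the alternatives. Atp5j2, the membrane-sector subunit f, was named after its values were seen: 50.2 to 72.3 CPM in cells against 37.2 to 45.7 CPM in tissue, every pool above every tissue library, with a log2 fold change of 0.85 ± 0.26 (SE, adjusted p = 0.059, ranging from 0.0079 to 0.29 over the alternatives).

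The c ring of ATP synthase, which turns as protons pass, is encoded by Atp5g1, Atp5g2 and Atp5g3, whose mature proteins are identical. Atp5g1 had 77.0, 40.5 and 146 CPM in the FC pools, 192 and 130.3 CPM in the shock-only pools and 62.3 to 87.5 CPM in tissue (log2 fold change 0.93 ± 0.45, SE, adjusted p = 0.23). Atp5g2 had 9.83 to 31.9 CPM in cells and 26.4 to 38.98 CPM in tissue (-0.42, adjusted p = 0.64), and Atp5g3 59.6 to 81.9 and 64.3 to 85.1 CPM (0.20, adjusted p = 0.68). Of the counts of the 3 genes, Atp5g2 took 7.02% to 13.8% in the pools and 16.2% to 23.5% in tissue, ranges that did not overlap, while Atp5g1 took 34.0% to 68.2% and 37.6% to 44.4%, ranges that did. Atp5g2 has 3 near-identical copies in the genome, so part of its reads may have been lost in every library.

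The number of members whose groups did not overlap depended on the scaling. Every pool was above every tissue library, in CPM, for 4 of 78 members (Ndufa12, Ndufv2, Uqcrb and Atp5j2), against 5.97% of all genes tested. Every pool was below every tissue library for 3 members, Ndufs7 and Atp5c1 among them, against 21.4% of all genes. On TMM-scaled sizes every pool was above tissue for 10 members, against 10.9% of all genes, and below it for 0, against 16.6%. Atp5c1, the gamma subunit that forms the rotating stalk, had 60.8 to 96.9 CPM in cells and 108 to 158 CPM in tissue (log2 fold change -0.47 ± 0.23, SE, adjusted p = 0.25). Ndufv2, Ndufs7 and Atp5c1 were named after their values were seen.

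Promoter sequences are shown for 4 members, among them Atp5k and Ndufa12, which had some of the smallest p-values. RefSeq promoters (GRCm38.p6, 250 bases before to 50 after the start) were matched to 66 of 80 members. Motif letters were searched on both strands: CGCATGCG for NRF1, CCGGAAG for ETS factors such as GABP and AAGATGGC for YY1, none of which overlaps another in the promoters printed here. In the sequences below, capitals mark a motif on either strand. The promoter of Atp5k at chr5:108434350-108434649 (- strand) holds 1 NRF1 and 1 ETS match. Those of Ndufa12 at chr10:94198785-94199084 (+ strand), Cox7a1 at chr7:30183921-30184220 (+ strand) and Cox7a2 at chr9:79759804-79760103 (- strand) hold none; the last pair is shown because one paralog was near 0 and the other was expressed in every library.
Atp5k: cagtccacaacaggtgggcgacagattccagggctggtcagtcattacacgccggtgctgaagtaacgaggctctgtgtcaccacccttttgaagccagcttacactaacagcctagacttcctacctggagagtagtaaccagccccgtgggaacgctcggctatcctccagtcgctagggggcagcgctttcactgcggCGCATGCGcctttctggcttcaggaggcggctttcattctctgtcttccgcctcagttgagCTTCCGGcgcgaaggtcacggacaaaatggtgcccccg
Ndufa12: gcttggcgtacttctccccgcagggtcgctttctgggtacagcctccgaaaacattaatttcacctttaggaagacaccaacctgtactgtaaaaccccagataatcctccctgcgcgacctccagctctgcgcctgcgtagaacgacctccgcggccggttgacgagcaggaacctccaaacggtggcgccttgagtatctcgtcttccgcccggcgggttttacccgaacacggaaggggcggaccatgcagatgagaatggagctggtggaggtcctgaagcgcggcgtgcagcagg
Cox7a1: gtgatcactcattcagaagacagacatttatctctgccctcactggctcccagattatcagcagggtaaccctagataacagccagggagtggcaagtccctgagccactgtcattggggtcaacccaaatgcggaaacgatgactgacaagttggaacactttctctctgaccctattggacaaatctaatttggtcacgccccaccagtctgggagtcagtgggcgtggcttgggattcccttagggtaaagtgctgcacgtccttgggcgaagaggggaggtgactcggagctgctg
Cox7a2: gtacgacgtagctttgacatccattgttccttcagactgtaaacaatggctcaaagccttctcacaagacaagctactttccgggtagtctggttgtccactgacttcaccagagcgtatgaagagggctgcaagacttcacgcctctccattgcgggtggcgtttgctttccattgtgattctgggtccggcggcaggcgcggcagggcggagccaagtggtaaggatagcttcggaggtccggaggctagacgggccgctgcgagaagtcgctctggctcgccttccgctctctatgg

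The promoter of Cox7a1 has 7 CpG pairs and that of Cox7a2 has 20, against a median of 19.5 in the members and 21.0 in the 11838 genes of the table with a promoter. The NRF1 letters occurred in 9 of 66 members (13.6%) and in 3.82% of table genes, the YY1 letters in 11 (16.7%) and 4.65%, and the ETS letters in 16 (24.2%) and 17.8%. Fold changes did not follow them: the median log2 fold change was 0.31 in tested members with the NRF1 letters and 0.38 in those without, 0.31 and 0.38 for YY1, and 0.32 and 0.41 for ETS. A match is a description of the letters and not of binding.

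Pools differed from each other far more than tissue libraries did. The SD of log2 (CPM + 1) had a median of 0.58 over the tested members in the 5 pools and 0.14 in the 3 tissue libraries, against 0.73 and 0.16 over all genes tested. By complex, the median SD in the pools was 0.82 for complex II, 0.67 for I, 0.58 for III, 0.48 for IV and 0.40 for V. Ndufa10 (0.11) and Cox7a2l (0.14) varied least among tested members, and Cox6a2 (2.46) and Ndufb2 (1.64) most.

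The shock-only pool of 30 cells stood apart in the members. It held the highest pool value of 29 of 80 members, against 2656 of 12493 genes tested. Its summed level was 1.31 times the mean of the other pools, 1.82 times for complex III, 1.41 for V, 1.28 for IV, 1.13 for II and 1.12 for I. Against the tissue mean, on library totals and not TMM-scaled sizes, the median log2 ratio of the tested members was 0.28 in this pool and -0.18 to -0.09 in the other 4. That of all genes tested was -0.38 in this pool and -0.53 to -0.25 in the other 4. Other mitochondrial lists were not uniform there. The 76 mitochondrial ribosomal protein genes summed to 2200 CPM against 1600 to 1772 CPM in the other 4 pools, and 16 carriers and import proteins to 2319 against 1394 to 1950 CPM, the highest pool for both. The biogenesis regulators were lowest in this pool (342 against 360 to 397 CPM), and the assembly factors (1254 against 1022 to 1291 CPM), the tricarboxylic acid cycle enzymes (1703 against 1447 to 1915 CPM) and the genes of pyruvate entry (1128 against 1046 to 1286 CPM) lay inside the range of the other pools.

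**Figure D4:**
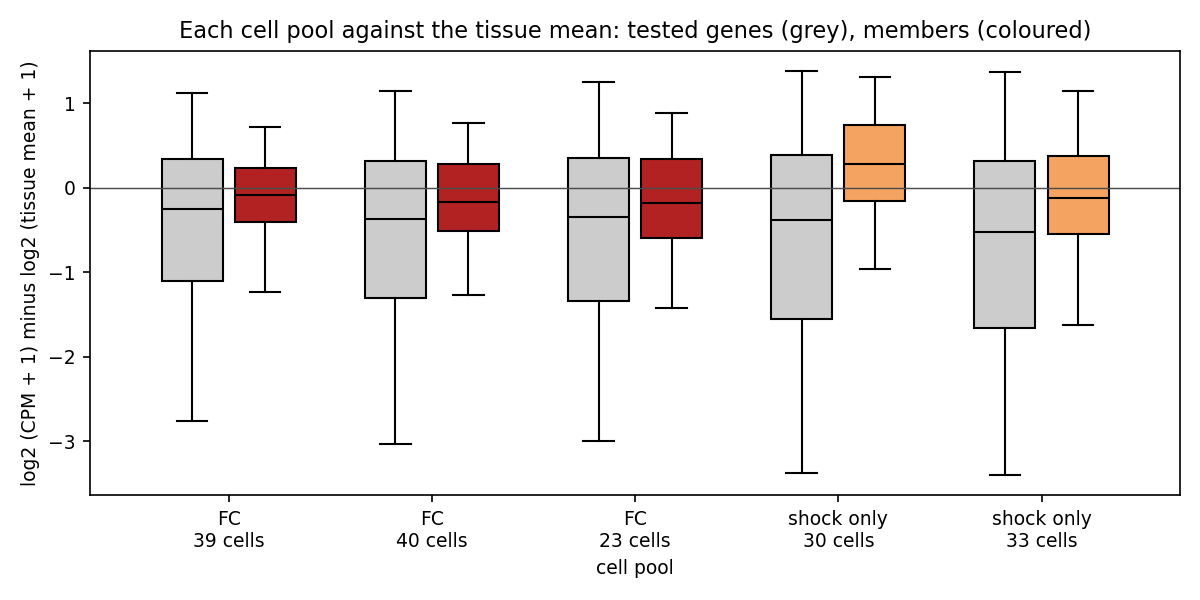
Log2 (CPM + 1) in each Arc-dVenus+ pool minus that of the tissue mean, for all 12493 genes tested (grey) and the 78 tested members (coloured); boxes are the interquartile range with the median, whiskers the 5th to 95th percentile. Values are on library totals, where the members' median is above 0 only in the shock-only pool of 30 cells (0.28). On TMM-scaled sizes the members' summed level was above every tissue library in every pool.

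Fear conditioning against shock alone gave no call. Within the Arc-dVenus+ pools, 0 of the 78 members tested and 0.00% of all 10798 genes tested had an adjusted p below 0.05 in edgeR's quasi-likelihood test. At an unadjusted p below 0.05 there were 8 members (10.3%), all lower in FC, against 6.00% of all genes in either direction and 2.95% lower in FC. DESeq2 called 1 member, Cox6a2, against 0.889% of all genes, and edgeR's exact test none. The median log2 fold change of the members, FC over shock only, was -0.28, against -0.02 for all genes. Of the members, 54 of 78 were lower in FC, against 5488 of 10798 genes tested. The medians were -0.89 for complex III, -0.33 for V, -0.29 for IV, -0.13 for I and 0.10 for II. With 3 pools against 2, and 1 of the 2 standing apart, the condition and that pool cannot be told apart.

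The members of lowest p in this comparison were Cox7b, Uqcr11 and Cox6a2. Cox7b, an X-linked subunit of complex IV, had 78.2, 83.6 and 71.8 CPM in the FC pools and 203 and 148 CPM in the shock-only pools, with no overlap, and 73.0 to 89.5 CPM in tissue (log2 fold change -1.23 ± 0.34, SE, adjusted p = 0.81). Uqcr11, the smallest subunit of complex III, had 34.7, 26.0 and 18.3 CPM in the FC pools, 72.0 and 81.1 CPM in the shock-only pools and 28.4 to 43.9 CPM in tissue (-1.60 ± 0.49, SE, adjusted p = 0.81). For both, the shock-only pools were above all other libraries, the pool of 33 cells included. The value of Cox6a2 (-7.35, adjusted p = 0.81) came from the 1 pool described above.

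The members are short genes, and over all genes tested both comparisons had their highest median among the shortest transcripts. Their transcripts had a median of 891.5 nt (351 to 4933 nt), against 2892 nt over the 14555 table genes with a length. Among genes of up to 700 nt, the median log2 fold change of cells over tissue was 0.45 over all 278 genes tested and 0.43 over 30 members. From 700 to 1000 nt it was 0.23 over 442 genes and 0.32 over 14 members, and from 1000 to 1500 nt 0.24 over 1060 genes and 0.41 over 15 members. From 1500 to 2500 nt it was 0.08 over 2727 genes and 0.25 over 12 members, and the classes above held 7 members. In the same classes the pool of 30 cells over the other pools had a median log2 ratio of 0.32 over all genes of up to 700 nt and -0.18 over those of 1500 to 2500 nt. Over the members it did not fall with length, at 0.34, 0.33, -0.03, 0.29, 0.29 and 0.92 from the shortest class to the longest. The Spearman correlation of length with log2 fold change, cells over tissue, was -0.06 over 11928 genes and -0.20 over 78 members. The part of length in these differences was not tested beyond these values.

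**Figure D5:**
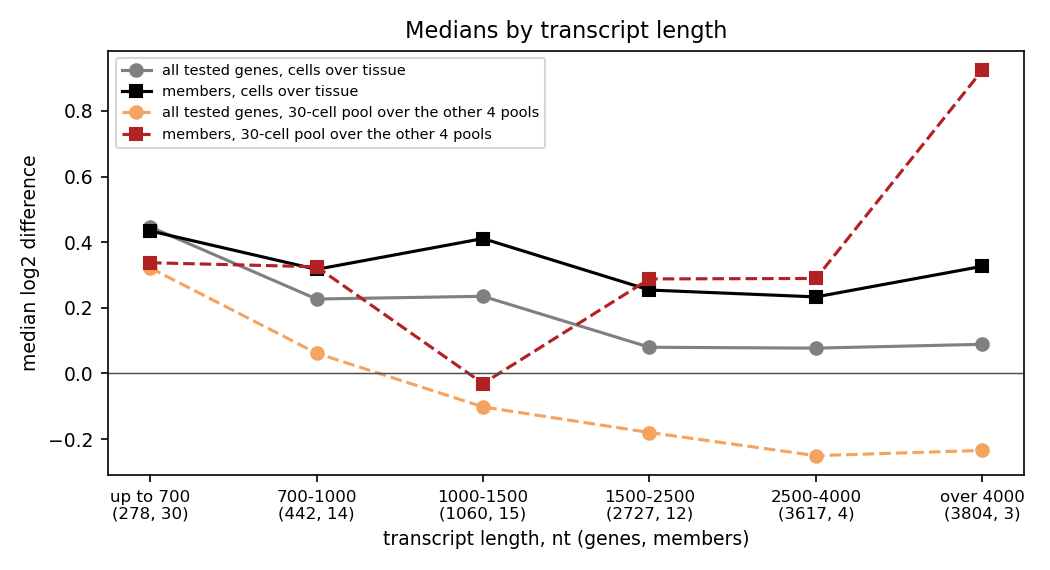
Median log2 difference by transcript length (nt) for all genes tested and for the members: Arc-dVenus+ cells over bulk tissue (solid) and the shock-only pool of 30 cells over the other 4 pools (dashed), with the numbers of genes and members under each class. Members and all genes are level up to 700 nt (0.43 and 0.45) and part in the longer classes, the last 2 of which hold 4 and 3 members.

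Near-identical copies, such as processed pseudogenes, are frequent for these genes. At 95% identity over 50% of the transcript, 23 of 80 members had at least 1 copy elsewhere in mm9, up to 10 for Atp5l. The median log2 fold change was 0.33 in the 23 members with a copy and 0.33 in the 55 tested members without one. Their values remain uncertain, because a read that fits a copy equally well was not counted.

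Genes that work beside the members gave a few calls, where 3.13% of all genes tested rose and 6.58% fell. Of 7 parts of the chain and the synthase that the symbols do not catch, 2 rose and none fell: Usmg5, a small subunit of ATP synthase (98.1 to 191 CPM in cells, 48.8 to 58.2 CPM in tissue, log2 fold change 1.56 ± 0.27, SE, adjusted p = 0.0038), and Atpif1, which inhibits ATP hydrolysis by the synthase (94.2 to 178 CPM and 74.2 to 86.9 CPM, 1.13 ± 0.25, SE, adjusted p = 0.015). Higd1a, a small inner membrane protein, did not pass (0.88, adjusted p = 0.099). Of 44 tested assembly factors, none rose and 3 fell, a share close to the 6.58% of all genes that fell. These were the complex I methyltransferase Ndufaf7, listed under its older symbol 2410091C18Rik (67.8 to 151 CPM in cells, 650.0 to 734 CPM in tissue, log2 fold change -2.50), the copper chaperone Sco1 (6.68 to 14.8 and 48.8 to 59.1 CPM, -2.06, adjusted p = 0.0042) and Acad9 (10.0 to 26.1 and 53.4 to 70.7 CPM, -1.75, adjusted p = 0.012), which assists complex I assembly. The median log2 fold change of the assembly factors was -0.06.

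Upstream of the chain, 1 of 14 tricarboxylic acid cycle enzymes rose and none fell. Of 13 genes of pyruvate entry, 1 rose and 1 fell, against 3.13% and 6.58% of all genes. The cycle enzyme was the isocitrate dehydrogenase subunit Idh3g (114 to 339 CPM in cells, 97.1 to 105 CPM in tissue, log2 fold change 1.30 ± 0.35, SE, adjusted p = 0.032). Mdh2 (0.59, adjusted p = 0.045) passed the p but not the fold. In pyruvate entry, the phosphatase Pdp1, which activates pyruvate dehydrogenase, rose (333 to 416 CPM and 143 to 204 CPM, 1.34 ± 0.18, SE, adjusted p = 7.9e-04), and the kinase Pdk4, which inhibits it, fell (2.44 to 4.40 and 25.1 to 31.2 CPM, -2.68 ± 0.48, SE, adjusted p = 0.0041). Pdhx did not pass (0.76, adjusted p = 0.16).

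None of 16 carriers and import proteins rose or fell, the lowest p being that of the outer membrane channel Vdac1 (431 to 606 CPM in cells, 353 to 427 CPM in tissue, log2 fold change 0.67, adjusted p = 0.021), followed by Tomm70a (0.53, adjusted p = 0.17) and Vdac3 (0.38, adjusted p = 0.32). Of 76 mitochondrial ribosomal protein genes, none rose and 1 fell, against 3.13% and 6.58% of all genes. It was Mrpl20 (8.74 to 20.6 and 42.2 to 49.8 CPM, -1.52, adjusted p = 0.028), while Mrpl35 was lower by less than 2-fold (-0.81, adjusted p = 0.026) and Mrpl30 did not pass (1.42, adjusted p = 0.055). Of 14 regulators of mitochondrial biogenesis, none rose and 1 fell, beside the same shares of all genes. It was the mitochondrial DNA helicase Peo1 (4.30 to 8.05 and 21.0 to 25.8 CPM, -1.81, adjusted p = 0.032). Gabpb1 (1.25, adjusted p = 0.13) and Pprc1 (1.46, adjusted p = 0.30) did not pass. The median log2 fold changes were 0.29 for carriers and import, 0.35 for mitochondrial ribosomal proteins, 0.23 for regulators, 0.23 for pyruvate entry and 0.16 for the cycle, beside 0.33 for the members and 0.10 for all genes.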

How the data were processed

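RNA was amplified and sequenced from 5 pools of Arc-dVenus+ cells and 3 bulk-tissue libraries; each pool and tissue library is 1 replicate. Reads were mapped by the authors with RUM to the mouse build mm9; unique alignments to 1 transcript variant per gene were counted, and the authors deposited these counts and CPM values relative to library totals. The authors' own fold changes, p-values and gene overlaps were deposited beside these and were not used. Counts were tested with edgeR 4.0.16 (TMM, quasi-likelihood, Benjamini-Hochberg) in R 4.3.3, with limma 3.58.1 and DESeq2 1.42.0 as alternatives, over genes that reached 20 CPM summed over libraries. The edgeR test was also run on simulated data. FC and shock-only pools were compared in the same way. Intervals are at the 95% level, and SE of a log2 fold change comes from the F statistic. The labels do not say whether libraries of a group were prepared separately, and p-values measure the spread between these libraries. Totals of 7110598 to 24151755 counts set the precision of low values.

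Positions and lengths come from GENCODE M1 (mm9), copies from minimap2 2.31-r1302 and promoters from RefSeq (GRCm38.p6). Members, lists and alternatives were chosen with earlier results of these data known. Named members were those with the 2 highest mean CPM and the highest and lowest log2 fold change in each complex, all paralogs of the Cox4i, Cox6a, Cox6b, Cox7a, Cox8, Atp5g and Ndufa4 groups, members under the minimum, the 3 with the smallest p between FC and shock-only pools and, of each other list, up to 3 with the smallest p. Alternatives were other scalings, tests and minimums, condition as a covariate, shock-only libraries alone and each library left out in turn. Values of a few genes that this rule names are not reported here. For lists, 19 symbols were matched to older ones through RefSeq accessions.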

Additional observations from a re-analysis of the deposited data

Results flagged for a closer look

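Among 37 values checked over the 5 Arc-dVenus+ pools (the summed levels and the 31 named members), 7 had a pool whose gap to the nearest other pool took up most of the range. In 2 of these, Cox7a1 and Ndufa4l2, the other 4 pools were at 0, so the gap fills the range whatever the count. For values without such zeros, chance gives about 1 in 20 only if they are independent and normally distributed. These CPM values come from the same pools, and some members were named for extreme values. The share over all genes was not computed, so the count does not show an excess. In 4 of the 7 flagged values the pool was the shock-only pool of 30 cells. They included the summed level of all members (8122 CPM against 6158 to 6302 in the others) and Ndufa4 (244 CPM against 80.4 to 126). The rest were Uqcrc1 (112 CPM against 39.4 to 57.4) and Cox6a2 (50.1 CPM against 0 to 0.47). Atp5s was high in the FC pool of 23 cells (13.99 CPM against 2.76 to 5.42). Cox7a1 was seen only in the FC pool of 40 cells (0.90 CPM), and Ndufa4l2 only in the FC pool of 39 cells (0.059 CPM, 1 count), with 0 in the other pools. The FC and shock-only pools lay on opposite sides of the tissue mean for 3 values, a difference that was not tested: summed complex III, where the FC mean minus the shock-only mean was -255 CPM around a tissue mean of 413 CPM, Uqcr11 (-50.2 CPM, tissue mean 36.3 CPM) and Cox7a2l (16.8 CPM, tissue mean 105 CPM). On TMM-scaled sizes these sides did not hold for complex III, where the FC pools (349 to 396) had a mean above the tissue mean of 369.6. They did not hold for Cox7a2l either: both the FC pools (113 to 124) and the shock-only pools (105 to 106) were above the tissue mean of 93.8. For Uqcr11 the FC mean stayed below the tissue mean of 32.4, with pools from 19.6 to 35.5. Its shock-only pools were above that mean (79.9 to 87.5).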

How the results depend on the processing

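The count of members that rose was 0 and became 2 with DESeq2 (Uqcrb, log2 fold change 1.52, and Atp5k, 1.08) and 1, Uqcrb, with edgeR's exact test (1.48), with no filter on low counts (1.53) and with condition as a covariate (1.51); it ranged from 0 to 1 when a library was left out, with Uqcrb at 1.64 without the FC pool of 39 cells and Ndufa12 at 1.05 without the 30-cell shock-only pool. The count that fell was 0, and 1 (Ndufa4l2) with no filter. For FC against shock only, DESeq2 called 1 member (Cox6a2, -7.42). Scaling by library totals alone moved the median log2 fold change to 0.062 for all members, 0.15 for complex I, 0.06 for IV and -0.030 for V. On TMM-scaled sizes the ratio of summed CPM was 1.20 for all members, 1.28 for complex I, 1.29 for IV and 1.06 for V. Without Cox4nb, Atp5s and Atp5sl, and with Ndufa4 counted in complex IV, both chosen after seeing the data, medians and ratios moved by less than the spread between pools. Among uncalled members the sign turned with total scaling for Sdha (-0.053), Sdhc (-0.0065), Cox4i1 (-0.17), Atp5g3 (-0.057), Cox6a1 (-0.11) and Cox7a2 (-0.11); in the shock-only libraries for Sdhd (0.12), Uqcrh (0.063), Atp5a1 (0.0031) and Atp5g2 (0.20); with voom for Cox6a2 (-2.44) and Cox4i1 (-0.070); with condition as a covariate for Cox6a2 (-0.78); and with a minimum of 100 CPM for Cox4i1 (-0.056). With a library left out, Cox4i1 ranged from -0.11 to 0.25, Atp5b from -0.16 to 0.024, Atp5a1 from -0.21 to 0.097 and Cox7a2 from -0.023 to 0.25. Over all genes, 0 to 649 rose and 4 to 1577 fell across the alternatives, and 0 to 96 were called for FC against shock only. The causes were not tested. No paired analysis was possible because replicate numbers of cell pools and tissue libraries do not mark shared animals, and a group of 1 library has no second number.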
